A study of Mus musculus with 16 samples.

Results

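A set of 10 genes that are normally transcribed in germ cells, of a kind whose promoters are commonly held methylated in somatic cells, was followed through the exit of mouse embryonic stem (ES) cells from naive pluripotency. They are Dazl, Ddx4, Mael, Sycp1, Sycp3, Taf7l, Tex101, Hormad1, Slc25a31 and Prss50. They were chosen by symbol, each has a single row in the deposited table of gene counts, and they make up 10 of its 27179 genes. The libraries measure RNA, and DNA methylation was not measured in the data used here, so the genes are called germline genes in what follows.

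ES cells had been adapted for 3 passages from serum with leukaemia inhibitory factor (LIF) to either of 2 media that hold the naive state, and were used for at most 9 passages. The labels name no cell line or genotype, and all groups share this origin. Both media contained LIF and 2i, the pair of inhibitors CHIR99021 (3 uM, against GSK3) and PD0325901 (1 uM, against MEK). LIF was at 1000 U per ml in serum/LIF+2i, and its dose in 2i/LIF is not given in the sources used here. Glutamine was 2 mM for all groups. 2i/LIF was a serum-free medium with N-2 and B-27 supplements, while serum/LIF+2i contained 10% fetal bovine serum. Exit was begun by a change to serum-free medium lacking both 2i and LIF, with another base medium for cells from serum than for cells from 2i/LIF, and cells were collected after 12, 24 or 40 h or, as the controls at 0 h, without that change. Each of the 8 groups had 2 libraries. The labels do not say that these came from separate cultures, so p-values measure only the spread between these samples, which may be technical.

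The members act at different steps of germ cell development. Dazl binds RNA and promotes its translation, Ddx4 is the RNA helicase of germ granules, and Mael works in the piRNA pathway that silences transposons. Sycp1, Sycp3 and Hormad1 build the axes and the synaptonemal complex that join homologous chromosomes in meiosis. Taf7l is a germ cell paralogue of a TFIID subunit, Slc25a31 encodes the ADP/ATP carrier of the testis, Prss50 a testis serine protease, and Tex101 a glycoprotein of the germ cell surface. In ES cells and somatic cells such genes are kept low by methylation of CpG-rich promoters and by PRC1.6, a polycomb complex that reaches them through E2F6 and through MGA and MAX, which bind E-boxes.

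The promoters of 5 members are printed because their RNAs followed different courses: Mael and Taf7l were highest at 40 h, Hormad1 rose and then fell, Prss50 rose from the floor within 12 h, and Dazl was already high at 0 h in 2i/LIF. Each run has 250 bases before and 50 after the start in the RefSeq table for GRCm38.p6, read 5′ to 3′ on the gene's strand. Capitals mark the E-box CACGTG, which reads the same on both strands, and the E2F6 core TCCCGC or its reverse complement GCGGGA; no marked motifs overlap. The windows are chr1:166238695-166238994 (minus strand) for Mael, chrX:134476441-134476740 (minus) for Taf7l, chr3:95559427-95559726 (plus) for Hormad1, chr9:110857714-110858013 (plus) for Prss50 and chr17:50293571-50293870 (minus) for Dazl.
Mael: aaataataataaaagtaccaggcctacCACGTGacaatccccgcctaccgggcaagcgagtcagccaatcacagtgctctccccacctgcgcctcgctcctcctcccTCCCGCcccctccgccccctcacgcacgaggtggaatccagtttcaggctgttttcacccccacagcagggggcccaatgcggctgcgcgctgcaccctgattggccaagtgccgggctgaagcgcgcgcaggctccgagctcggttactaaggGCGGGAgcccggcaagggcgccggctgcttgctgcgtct
Taf7l: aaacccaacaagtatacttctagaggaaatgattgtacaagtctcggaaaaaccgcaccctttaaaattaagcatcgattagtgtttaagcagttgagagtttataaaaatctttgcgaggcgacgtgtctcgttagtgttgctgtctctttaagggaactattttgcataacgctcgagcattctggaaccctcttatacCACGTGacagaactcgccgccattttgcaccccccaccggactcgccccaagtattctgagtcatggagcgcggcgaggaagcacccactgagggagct
Hormad1: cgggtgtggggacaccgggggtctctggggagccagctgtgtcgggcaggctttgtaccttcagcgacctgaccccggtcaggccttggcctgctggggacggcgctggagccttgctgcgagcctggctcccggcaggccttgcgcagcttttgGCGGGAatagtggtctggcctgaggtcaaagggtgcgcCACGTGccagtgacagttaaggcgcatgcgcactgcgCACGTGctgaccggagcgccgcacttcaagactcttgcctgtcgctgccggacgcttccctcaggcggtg
Prss50: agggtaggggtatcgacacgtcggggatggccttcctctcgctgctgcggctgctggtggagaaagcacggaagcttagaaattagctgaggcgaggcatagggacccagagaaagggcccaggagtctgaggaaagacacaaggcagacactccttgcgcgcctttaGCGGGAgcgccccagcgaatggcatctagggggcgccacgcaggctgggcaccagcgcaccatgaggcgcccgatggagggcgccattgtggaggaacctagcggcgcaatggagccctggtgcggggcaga
Dazl: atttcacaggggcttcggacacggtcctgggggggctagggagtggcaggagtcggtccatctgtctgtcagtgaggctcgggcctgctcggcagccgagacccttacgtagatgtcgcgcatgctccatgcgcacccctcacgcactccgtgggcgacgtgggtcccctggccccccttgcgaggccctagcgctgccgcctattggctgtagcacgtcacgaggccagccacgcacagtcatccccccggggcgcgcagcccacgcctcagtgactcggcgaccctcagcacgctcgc
The Mael window holds an E-box at -223, counted in bases from the start, and E2F6 cores at -143 and 11. Taf7l has an E-box at -49 and no core, Hormad1 has E-boxes at -57 and -20 and a core at -95, and Prss50 has only a core, at -82. Neither string was found in the window of Dazl or in that of Tex101, which says only that these letters are not there.

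Windows were matched for 10 of 10 members. The E-box was in 7 of them (70%), against 7.24% of the windows of all 27025 genes in the table, and the E2F6 core was also in 7 (70%), against 20% of all. Windows were also found for 90 genes of a wider list of other germline genes, and of these 22.2% held the E-box, 28.9% the core and 5.56% both. Both motifs were in 6 (60%), which were Ddx4, Mael, Sycp1, Sycp3, Hormad1 and Slc25a31, against 2.05% of all. The members' windows had a median of 21.5 CpG sites (15 to 38), and the median was 14 over the other germline genes and 7 over all genes. Their median ratio of observed to expected CpG was 0.788 (0.666 to 1.029), against 0.574 and 0.389. The other germline genes thus lay between the members and all genes in each of these measures. For Ddx4, which has both motifs and the 38 CpG sites, the table's start lies 323 bases inside the outermost end of the annotated gene, and for Taf7l it lies 15 bases inside, so these windows describe the table's start only. These are matches of letters and say nothing of binding in these cells.

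Total counts ran from 5931381 to 11142744 per library, and the deepest were the 40 h libraries from serum/LIF+2i. Levels are given in CPM, counts scaled to a common library total, with totals adjusted by trimmed mean of M values, and a floor of 3 counts corresponded to 0.259 to 0.517 CPM. The floor covers counting error only, since the reads carry no molecular identifiers. As a check of the labelled cell type, 8 naive ES cell markers summed to 5604 to 5625 CPM in 2i/LIF and 6005 to 6089 CPM in serum/LIF+2i at 0 h, and to 915 to 936 CPM at 40 h over both media. Over the same time 5 markers of the formative epiblast, the state entered next, summed to between 154 and 182 CPM at 0 h and between 1953 and 2792 CPM at 40 h. Dnmt3b held most of this sum, at 129 and 161 CPM at 0 h and 2221 and 1730 CPM at 40 h, from 2i/LIF and serum/LIF+2i. Of the naive sum, Pou5f1 held 635 and 676 CPM at 40 h. From 24 to 40 h from serum/LIF+2i, Otx2 fell from 92.7 to 10.3 CPM and Fgf5 from 6.24 to 3.17 CPM, while the other 3 formative markers were called higher.

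At 0 h, 5 of the 80 pairs of member and group were at or under 3 counts in both libraries, and no pair was after exit. In 2i/LIF at 0 h these were Tex101, with 2 and 0 counts, and Prss50, with 0 counts in both libraries. In serum/LIF+2i at 0 h they were Taf7l (1 and 2 counts), Slc25a31 (1 and 0) and Prss50 (2 and 3). Genes were tested where their level reached 1.34 CPM in at least 2 libraries, and all 10 members passed. Tex101 exceeded that level in 4 libraries, Slc25a31 in 7, Taf7l in 9 and Prss50 in 12, so each entered the tests only through groups in which it was high. The other 6 members exceeded it in all 16 libraries.

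**Figure D1:**
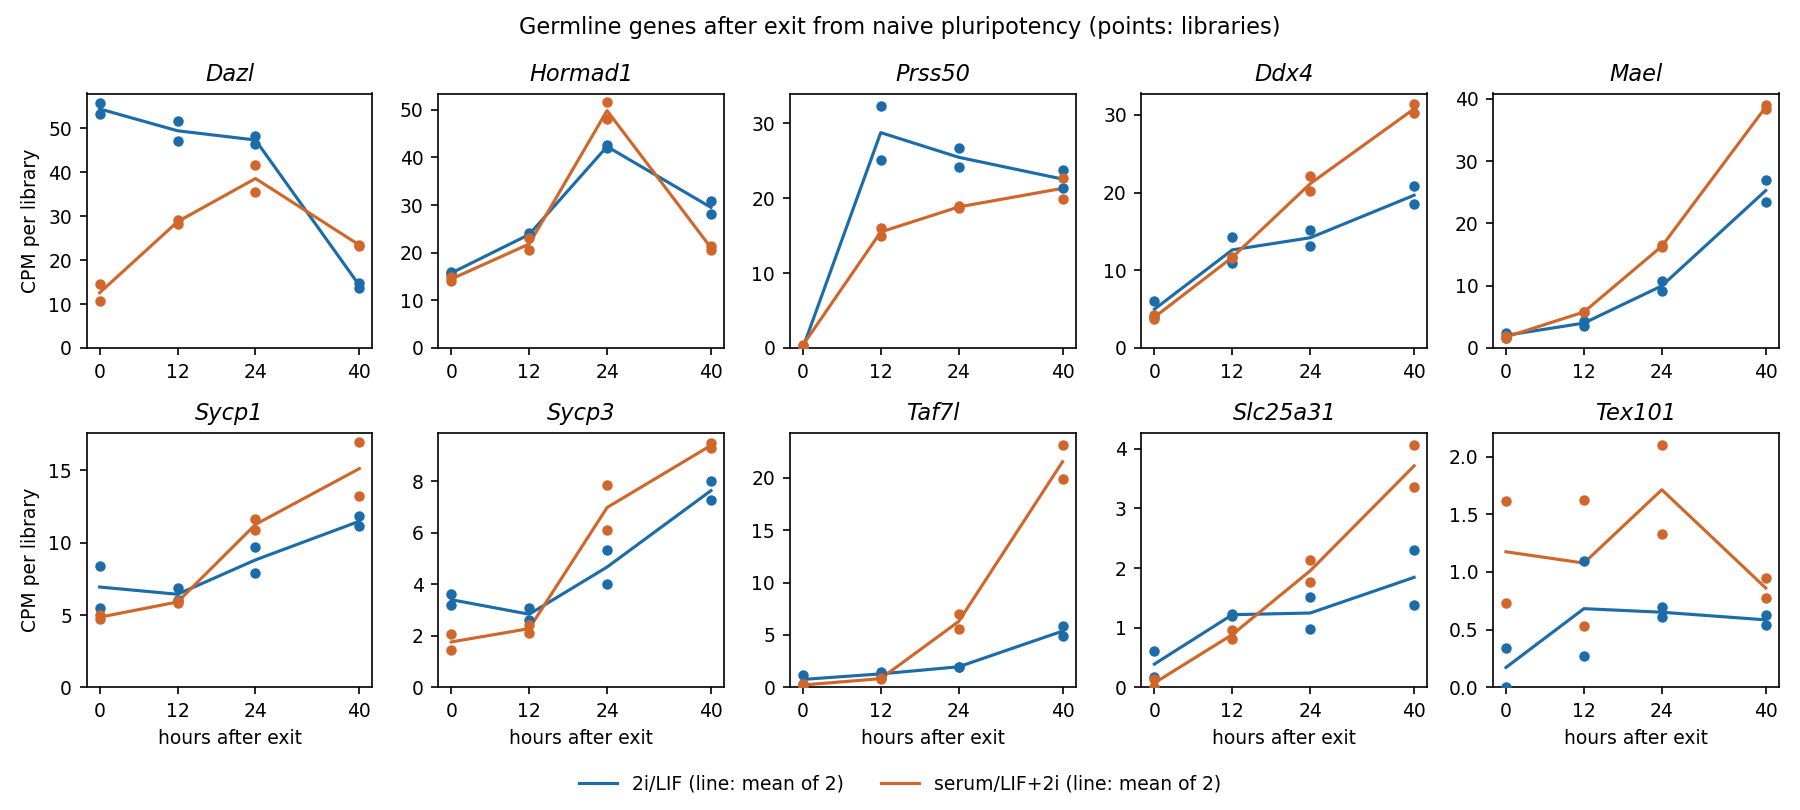
Level of each germline gene in CPM (vertical axis, own scale per panel) against hours after exit. Points are libraries and lines join the means of 2 libraries, blue for 2i/LIF and orange for serum/LIF+2i. Mael, Ddx4 and Taf7l climbed to 40 h in both media, Hormad1 was highest at 24 h, and Dazl started at 53.1 and 55.6 CPM in 2i/LIF but at 14.6 and 10.6 CPM in serum/LIF+2i.

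Compared per kilobase of gene length, the order of the members changed during exit. In 2i/LIF at 0 h Dazl (18.5 CPM per kb, mean of 2 libraries) and Hormad1 (10.4) stood above Sycp3 (3.03), Sycp1 (2.02), Ddx4 (1.75) and Mael (1.32), and the other 4 were under 0.4. At 40 h from 2i/LIF, Hormad1 (19.5), Mael (16.35), Prss50 (15.5), Ddx4 (6.90) and Sycp3 (6.81) were the highest, and Dazl was at 4.84. In serum/LIF+2i at 0 h, Hormad1 (9.58) and Dazl (4.27) were the highest, and Mael was at 1.14. By 40 h in serum/LIF+2i, Mael was the most abundant per kb at 25.0 CPM, followed by Prss50 (14.6), Hormad1 (13.9), Taf7l (11.1) and Ddx4 (10.8). Dazl was then seventh of the 10 at 7.95 CPM per kb. Averaged over all 16 libraries, the members lay between percentile 10.8 (Slc25a31) and 67.1 (Hormad1) of the tested genes per kb, so none was among the most abundant.

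Dazl (Entrez 13164, chr17:50279393-50293620) ended lower than it began from 2i/LIF and higher than it began from serum/LIF+2i. From 2i/LIF its level was 53.1 and 55.6 CPM at 0 h, 47.1 and 51.6 at 12 h, 46.4 and 48.2 at 24 h, and 13.7 and 14.8 at 40 h. From serum/LIF+2i it was 14.6 and 10.6, then 29.2 and 28.2, then 41.5 and 35.6, and finally 23.3 and 23.5 CPM. The 2i/LIF libraries thus stayed high for 24 h and dropped by 40 h, whereas the serum libraries rose to a peak at 24 h. Against 0 h, Dazl fell by 1.94 ± 0.11 on the log2 scale at 40 h from 2i/LIF (SE, n = 2 per group, edgeR quasi-likelihood adjusted p = 1.87e-32). Starting from serum/LIF+2i it rose by 1.19 ± 0.13 at 12 h (edgeR adjusted p = 2.57e-14), by 1.61 ± 0.12 at 24 h (3.31e-24) and by 0.90 ± 0.13 at 40 h (1e-09). The change at 24 h from 2i/LIF was small, at -0.20 ± 0.09 (edgeR adjusted p = 0.0457). It was not called without either 0 h or either 24 h library of 2i/LIF, with values from -0.24 to -0.17, nor with DESeq2 (-0.20).

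Ddx4 (13206, chr13:112598333-112652633) rose from both media. The 2i/LIF libraries held 6.03 and 3.95 CPM at 0 h, 10.96 and 14.3 at 12 h, 13.2 and 15.2 at 24 h, and 18.5 and 20.8 at 40 h. Those from serum/LIF+2i held 3.67 and 4.26, then 11.6 and 11.7, 22.1 and 20.2, and 31.4 and 30.2 CPM. Every later group lay above the 0 h group, and only the 12 and 24 h libraries from 2i/LIF overlapped. By 40 h the log2 rise was 1.99 ± 0.19 from 2i/LIF (edgeR adjusted p = 5.59e-18) and 2.95 ± 0.17 from serum/LIF+2i (1.41e-33).

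Mael (98558, chr1:166201385-166238744) started lower and rose further. From 2i/LIF it went from 2.41 and 1.67 CPM to 4.38 and 3.61 at 12 h, 10.8 and 9.12 at 24 h, and 27.1 and 23.5 at 40 h. The level from serum/LIF+2i went from 1.91 and 1.62 CPM to 5.81 and 5.75, 16.5 and 16.2, and 38.4 and 39.0. No 2 successive groups of a medium overlapped, while the 0 h groups of the media did. The log2 rise to 40 h was 3.64 ± 0.22 from 2i/LIF (edgeR adjusted p = 5.92e-32) and 4.44 ± 0.19 from serum/LIF+2i (1.38e-44). The rise of 0.98 ± 0.33 at 12 h from 2i/LIF was called (edgeR adjusted p = 0.0107), but not without replicate 2 of the 0 h group (0.73) or replicate 1 of the 12 h group (0.83).

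Among the genes of meiotic chromosomes, Hormad1 (67981, chr3:95559677-95587863), which marks unsynapsed axes, had a transient course. Its level from 2i/LIF was 15.5 and 15.9 CPM at 0 h, 24.1 and 23.5 at 12 h, 42.6 and 41.9 at 24 h, and 28.2 and 30.8 at 40 h. Cells from serum/LIF+2i gave 14.8 and 14.1, 20.5 and 23.1, 51.5 and 48.1, and 20.6 and 21.5 CPM. The 24 h libraries were the highest in both media, and the 40 h libraries from serum/LIF+2i fell back into the range of 12 h. On the log2 scale it rose from 0 to 24 h by 1.42 ± 0.12 from 2i/LIF (edgeR adjusted p = 5.88e-21) and 1.78 ± 0.11 from serum/LIF+2i (1.73e-30). From 24 to 40 h it fell by 0.52 ± 0.10 (edgeR adjusted p = 3.76e-06) and by 1.24 ± 0.09 (1.04e-24), in the same order of media.

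Sycp3 (20962, chr10:88459587-88473236), a protein of the lateral elements, changed late. From 2i/LIF it measured 3.62 and 3.19 CPM at 0 h, 2.60 and 3.08 at 12 h, 4.03 and 5.32 at 24 h, and 7.26 and 8.02 at 40 h. In cells from serum/LIF+2i it measured 1.47 and 2.06, 2.43 and 2.13, 7.85 and 6.11, and 9.31 and 9.48 CPM. The 12 h groups were not called against 0 h in either medium, and the 40 h groups were the highest. The log2 rise to 40 h was 1.17 ± 0.26 from 2i/LIF (edgeR adjusted p = 4.2e-05) and 2.40 ± 0.27 from serum/LIF+2i (4.12e-14).

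Sycp1 (20957, chr3:102818499-102936100), the transverse filament of the complex, had a similar course with smaller changes. The values from 2i/LIF were 5.51 and 8.35 CPM at 0 h, 6.85 and 6.02 at 12 h, 9.72 and 7.90 at 24 h, and 11.2 and 11.8 at 40 h, where only the 40 h libraries lay clear of 0 h. Libraries from serum/LIF+2i gave 4.70 and 4.99, 5.95 and 5.86, 11.6 and 10.9, and 16.98 and 13.3 CPM, with no overlap between times. By 40 h the log2 rise was 0.71 ± 0.20 from 2i/LIF (edgeR adjusted p = 0.00102) and 1.65 ± 0.19 from serum/LIF+2i (1.11e-13). Without replicate 1 of the 0 h group the former was 0.45 and was not called. In the annotation Sycp1 overlaps the pseudogene Gm33866, Sycp3 the gene Chpt1 and Hormad1 the noncoding RNA Gm40097, and whether reads were counted by strand is not given in the sources used here, so reads of these pairs may be shared.

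Taf7l (74469, chrX:134460116-134476505) had the largest difference between media late in exit. Its counts from 2i/LIF were 7 and 2 at 0 h, 8 and 11 at 12 h, 14 and 13 at 24 h, and 39 and 43 at 40 h. Those from serum/LIF+2i were 1 and 2, 6 and 8, 50 and 69, and 231 and 239. In CPM, the 40 h groups stood at 4.88 and 5.84 from 2i/LIF and at 19.9 and 23.1 from serum/LIF+2i. The rise from 2i/LIF to 40 h was 2.85 ± 0.41 on the log2 scale (edgeR adjusted p = 9.32e-10). For serum/LIF+2i, where 0 h had 3 counts in all, the ratio of 40 to 0 h was 97.2 (95% interval 33.1 to 473, exact binomial, counting error only; edgeR adjusted p = 2.76e-35). Earlier calls rested on few counts. At 24 h from 2i/LIF the log2 rise was 1.41 ± 0.53 (edgeR adjusted p = 0.0172), and it was not called without replicate 2 at 0 h (0.69) or either 24 h library (1.42 and 1.40). At 12 h from serum/LIF+2i the ratio of 3.78 (1.06 to 20.5) was called, but not without any of the 4 libraries of that comparison, with fitted log2 values from 1.46 to 2.39, nor with DESeq2.

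Prss50 (235631, chr9:110857964-110864629) rose from the floor within 12 h. From 2i/LIF it had 0 counts in both libraries at 0 h, then 236 and 188 at 12 h, 174 and 176 at 24 h, and 170 and 175 at 40 h. In serum/LIF+2i it had 2 and 3 counts at 0 h, then 118 and 141, 169 and 186, and 263 and 206. In CPM the 2i/LIF groups then stood at 32.3 and 25.1, 24.2 and 26.8, and 21.3 and 23.8 at 12, 24 and 40 h. Those from serum/LIF+2i stood at 15.95 and 15.01, 18.69 and 18.95, and 22.7 and 19.9, each group above the one before it. Against the floor of 3 counts per library, Prss50 from 2i/LIF was at least 59.1-fold higher at 12 h, at least 52.3-fold at 24 h and at least 46.3-fold at 40 h. From serum/LIF+2i the ratio to 0 h was 42.0 (95% interval 17.8 to 130), 51.3 (21.8 to 159) and 58.2 (24.8 to 180) at these times. All 6 rises were called, with edgeR adjusted p between 3.6e-40 and 9.55e-29, and no step after 12 h was called in either medium. The step from 12 to 24 h came nearest, at 0.29 ± 0.13 on the log2 scale from serum/LIF+2i (edgeR adjusted p = 0.0589). It was called when scaled by library size only (0.32) and without replicate 2 of the 0 h group (0.29), and from 2i/LIF the same step was called without replicate 2 at 12 h (-0.35).

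Slc25a31 (73333, chr3:40708871-40726094) rose from a very low level. Its counts from 2i/LIF were 1 and 4 at 0 h, 9 and 9 at 12 h, 7 and 10 at 24 h, and 11 and 17 at 40 h. The serum/LIF+2i counts were 1 and 0, 6 and 9, 16 and 21, and 39 and 42. In CPM the 40 h libraries from serum/LIF+2i lay above all earlier ones (3.36 and 4.06), while those from 2i/LIF (1.38 and 2.31) overlapped the 24 h group (0.972 and 1.52). The log2 rise to 40 h from 2i/LIF was 2.14 ± 0.64 (edgeR adjusted p = 0.00196), and without replicate 1 of the 0 h group it was 1.56 and not called. From serum/LIF+2i, with 1 count in all at 0 h, the ratio was 50.3 (95% interval 8.77 to 2010; edgeR adjusted p = 3.72e-11). At 24 h from 2i/LIF the rise of 1.58 ± 0.71 (edgeR adjusted p = 0.048) was not called when any of 9 libraries was left out (1.00 to 1.58) or with DESeq2 (1.63). The call at 12 h from serum/LIF+2i (edgeR adjusted p = 0.00417) was lost without replicate 2 of its 0 h group, at a fitted log2 value of 2.49.

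Tex101 (56746, chr7:24668012-24672050) had low counts throughout, from 0 to 19 per library, and was not called in any exit comparison. Its counts from 2i/LIF were 2 and 0 at 0 h, 8 and 2 at 12 h, 5 and 4 at 24 h, and 5 and 4 at 40 h. Counts from serum/LIF+2i were 11 and 5, 12 and 5, 19 and 13, and 11 and 8. The ratio of 40 to 0 h was 3.63 (95% interval 0.752 to 34.6) from 2i/LIF and 0.737 (0.359 to 1.53) from serum/LIF+2i, so a change of several fold was not detectable at this depth from 2i/LIF. In 2i/LIF, leaving out replicate 1 at 0 h leaves a single library with 0 counts there, and Tex101 was then called at 12, 24 and 40 h, as it was at 12 h without replicate 2 of that group (2.65 on the log2 scale).

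Counted together, 8 of the 10 germline genes were called higher at 40 h from 2i/LIF and 9 from serum/LIF+2i. From 2i/LIF, 4 of the 10 were called higher at 12 h, where 21.0% of all 14288 tested genes were, 6 at 24 h (29.2% of all) and 8 at 40 h (34.1%). Dazl was the member called lower at 24 h (29.6% of all genes) and at 40 h (34.7%). The 24 h calls of Taf7l, Slc25a31 and Dazl were lost when replicate 2 of that 2i/LIF group was left out, which left 4 members called, all higher. From serum/LIF+2i, 7 were called higher at 12 h (25.3% of all), 9 at 24 h (32.4%) and 9 at 40 h (35.3%), and 0 were called lower at these times (25.9%, 32.0% and 35.3% of all), as at 12 h from 2i/LIF (23.7%), by edgeR, at an unadjusted p under 0.05 or by DESeq2. The members' median log2 change at 40 h was 1.88 from 2i/LIF, with the median of all tested genes at 0.0052, and 2.68 from serum/LIF+2i, with that of all genes at -0.0032. Both series of times share their 0 h libraries, and 4 members passed the filter only through groups in which they were high, so these counts describe the members and do not set them apart from other genes. In bulk RNA, more cells that transcribe a gene and more RNA per cell cannot be told apart.

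**Figure D2:**
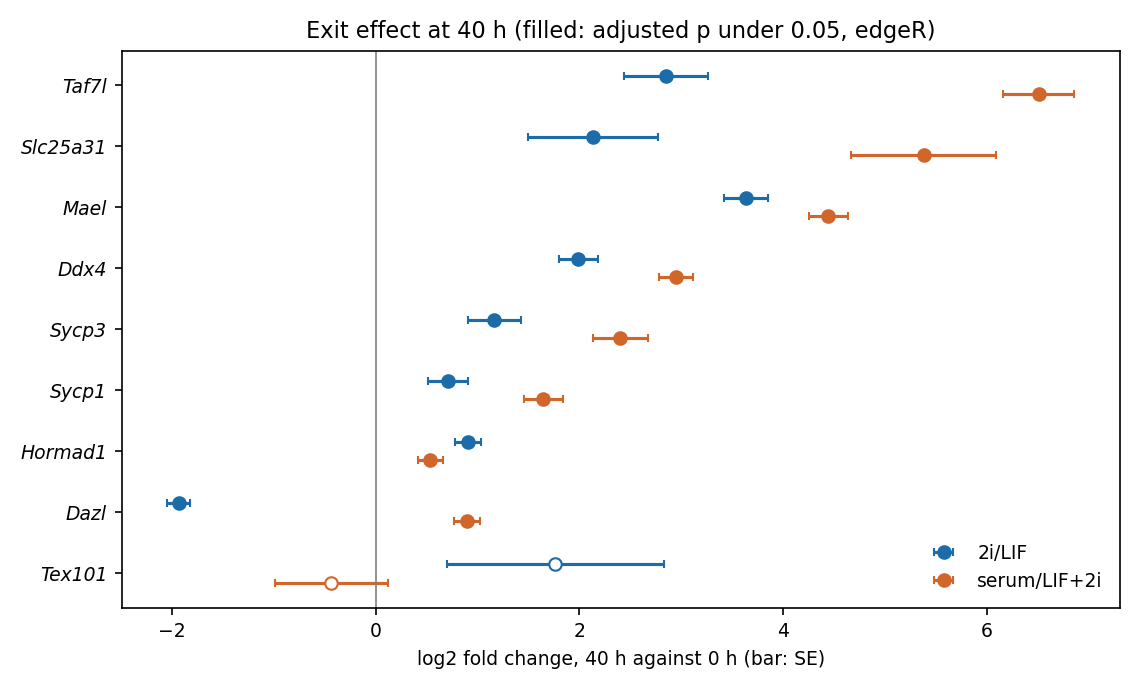
Fitted log2 fold change from 0 to 40 h (horizontal axis) for 9 germline genes, blue for 2i/LIF and orange for serum/LIF+2i. Bars are 1 SE from the fit of all 16 libraries, with 2 libraries per group. Filled points were called by edgeR; Prss50 is left out because it had 0 counts at 0 h in 2i/LIF, the serum values of Taf7l and Slc25a31 depend on the prior count, and Dazl is the only gene with called points on both sides of 0.

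The later steps showed which members kept rising. Between 12 and 24 h, 2 members were called higher from 2i/LIF, Mael and Hormad1 (17.4% of all genes), and 8 from serum/LIF+2i (24.2%), all but Tex101 and Prss50. In that step 0 were called lower by edgeR (17.7% and 24.2% of all genes), at an unadjusted p under 0.05 or by DESeq2. Between 24 and 40 h, 4 were called higher from 2i/LIF, namely Ddx4, Mael, Sycp3 and Taf7l (22.2%), and 6 from serum/LIF+2i, the same 4 with Sycp1 and Slc25a31 (25.9%). Dazl and Hormad1 were the members called lower in that last step in both media (24.5% of all genes from 2i/LIF and 24.6% from serum/LIF+2i). For Dazl it was -1.73 ± 0.11 from 2i/LIF (edgeR adjusted p = 1.29e-27) and -0.72 ± 0.09 from serum/LIF+2i (6.19e-11) on the log2 scale. Mael rose by 1.34 ± 0.14 and 1.24 ± 0.11 in the same step, and Taf7l by 1.44 ± 0.31 and 1.76 ± 0.16. Several calls of this step were lost with 1 library left out. From 2i/LIF these were Ddx4 (0.47 ± 0.14) and Sycp3 (0.71 ± 0.24), without replicate 1 at 24 h (0.37 and 0.52) or replicate 2 at 40 h (0.39 and 0.64). From serum/LIF+2i, Sycp1 (0.43 ± 0.14) was not called without replicate 2 at 24 h (0.39) or replicate 1 at 40 h (0.23). Sycp3 (0.43 ± 0.18) was not called without replicate 2 at 24 h (0.26) or either 40 h library (0.44 and 0.41), nor Slc25a31 (0.91 ± 0.32) without replicate 1 at 24 h (0.78) or replicate 2 at 40 h (0.76). The rise of Slc25a31 between 12 and 24 h (1.12 ± 0.46) was called only with all 4 libraries of that step, and was 0.97 to 1.26 with any of them left out.

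Before exit, cells in the 2 media differed most clearly in Dazl. Its 0 h level was 54.3 ± 1.78 CPM in 2i/LIF and 12.6 ± 2.81 CPM in serum/LIF+2i (SD, n = 2), a log2 difference of -2.11 ± 0.12 for serum/LIF+2i minus 2i/LIF (SE, edgeR adjusted p = 6.62e-32). Sycp3 was called lower in serum/LIF+2i as well, at 1.47 and 2.06 against 3.62 and 3.19 CPM (-0.94 ± 0.37, edgeR adjusted p = 0.0411). Tex101 and Prss50 were called higher there, Tex101 with 11 and 5 counts against 2 and 0, a ratio of 7.28 (95% interval 1.71 to 65.3; edgeR adjusted p = 0.0149). For Prss50 both groups were at or under the floor, with 2 and 3 counts against 0 and 0, and no fold is given. This made 2 members higher and 2 lower, against 14.6% and 18.4% of all genes. Only the Dazl call held with each library left out and with DESeq2. Sycp3 lost its call without any of the 4 libraries (-1.20 to -0.72), Prss50 likewise, and Tex101 without replicate 2 of 2i/LIF (1.72) or replicate 1 of serum/LIF+2i (2.08).

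During exit the order of the media turned around for Dazl, and other members came to differ. Cells from the 2 media also exited in different base media, so in these differences maintenance medium and exit medium cannot be told apart. At 12 h Dazl (-0.79 ± 0.09, edgeR adjusted p = 8.91e-12) and Prss50 (-0.89 ± 0.12, 2.17e-09) were called lower from serum/LIF+2i (15.5% of all genes), and 0 were called higher by edgeR or DESeq2 (14.8%), with only Mael at an unadjusted p under 0.05 (0.53 ± 0.24). At 24 h, 7 were called in either direction (31.1% of all). The 5 higher from serum/LIF+2i (14.1% of all) were Ddx4, Mael, Sycp3, Taf7l and Hormad1, and Dazl and Prss50 were still lower. At 40 h, 6 were called higher (13.9% of all), which were Dazl, Ddx4, Mael, Sycp1, Taf7l and Slc25a31, and Hormad1 was lower (13.4%). Dazl, whose 40 h libraries held 23.3 and 23.5 CPM from serum/LIF+2i against 13.7 and 14.8 from 2i/LIF, was by then 0.72 ± 0.12 higher (edgeR adjusted p = 8.36e-07). Taf7l had the largest difference at 40 h, 2.00 ± 0.17 (edgeR adjusted p = 8.88e-19), and Ddx4 (0.65 ± 0.11) and Mael (0.61 ± 0.10) were higher by similar amounts. For Hormad1 it was -0.49 ± 0.10 (edgeR adjusted p = 9.31e-05), with 20.6 and 21.5 against 28.2 and 30.8 CPM. Some of these calls were lost when a library of their own comparison was left out. At 24 h Dazl was not called without replicate 2 of either medium (-0.27 and -0.19), nor Prss50 without replicate 2 from 2i/LIF (-0.36). Sycp3 lost its call without replicate 1 of either medium (0.38 and 0.39), and Hormad1 without either library from 2i/LIF (0.25 and 0.22) or replicate 1 from serum/LIF+2i (0.19). At 40 h the same held for Sycp1 (0.41 ± 0.15) without either library from 2i/LIF (0.36 and 0.45) or replicate 1 from serum/LIF+2i (0.21). Slc25a31 (1.01 ± 0.34) was not called without replicate 1 from 2i/LIF (0.68) or replicate 2 from serum/LIF+2i (0.87). The calls of Ddx4, Mael and Taf7l at both times, and of Dazl and Hormad1 at 40 h, held without any 1 library.

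**Figure D3:**
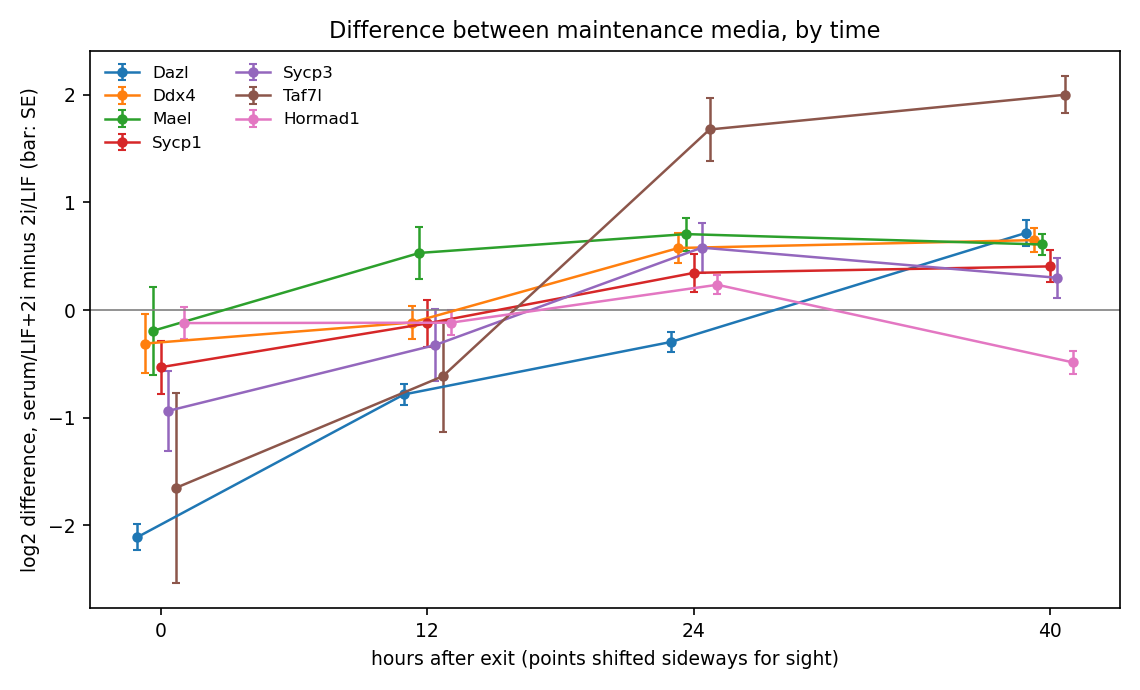
Log2 difference between media, serum/LIF+2i minus 2i/LIF (vertical axis), against hours after exit for 7 germline genes. Bars are 1 SE from the fit of all 16 libraries, with 2 libraries per group. Tex101, Slc25a31 and Prss50 are left out for their low counts; Taf7l is shown although its serum group at 0 h was at or under the floor too, so its point at 0 h rests on 3 and 9 counts. Dazl moves from -2.11 at 0 h to 0.72 at 40 h. After 0 h the base medium differed as well.

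The effect of exit was compared between media by an interaction, the exit change from serum/LIF+2i minus that from 2i/LIF. It includes the difference in base medium during exit, which cannot be told apart from that in maintenance medium. Dazl had the most precise difference, 1.33 ± 0.16 at 12 h (log2, SE, edgeR adjusted p = 4.29e-11), 1.82 ± 0.15 at 24 h (2.36e-19) and 2.83 ± 0.17 at 40 h (3.73e-29), and it was called without any 1 library and with DESeq2. At 12 h it was the only member called positive (4.80% of all genes), and Prss50 the only member called negative (4.40%). At 24 h and at 40 h, 5 members were called positive (9.77% and 14.8% of all genes), in both cases Dazl, Ddx4, Sycp1, Sycp3 and Taf7l. Prss50 was the member called negative at both times (12.8% of all genes at 40 h), which made 6 called in either direction at 24 h (20.8% of all), but its size depends on the prior count, since both 0 h groups were at or under the floor. At 40 h the differences were 3.66 ± 0.90 for Taf7l (edgeR adjusted p = 0.000794), 1.24 ± 0.41 for Sycp3 (0.0168), 0.96 ± 0.30 for Ddx4 (0.00925) and 0.94 ± 0.29 for Sycp1 (0.00839). Each of these lost its call without at least 1 library. Without replicate 1 of 2i/LIF at 0 h, Taf7l was 2.44, Ddx4 0.65 and Sycp3 1.15, and with replicate 1 of the 0 h group from serum left out, Ddx4 was 0.86 and Sycp3 1.02. Sycp1 was 0.59 without replicate 2 of 2i/LIF at 0 h and 0.74 without the first replicate of the 40 h serum group. Prss50 lost its call at all 3 times without either library of 2i/LIF or replicate 2 from serum at 0 h. At 24 h the differences of Taf7l (3.33), Sycp3 (1.52), Ddx4 (0.89) and Sycp1 (0.88) also depended on single 0 h libraries, and fell to 2.13, 1.30, 0.59 and 0.54 where they were lowest. Ddx4 and Sycp1 depended on single 24 h libraries too. Without replicate 1 from serum/LIF+2i at 24 h they were 0.82 and 0.83. Ddx4 was 0.78 without replicate 1, and Sycp1 0.74 without replicate 2, of the 24 h group from 2i/LIF. For Mael and Hormad1 the interaction at 40 h was not called, at 0.80 ± 0.43 and -0.37 ± 0.18.

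Summed over the 10 members, the level from 2i/LIF was 87.9 and 89.6 CPM at 0 h and 134 and 142 CPM at 40 h, and from serum/LIF+2i 43.3 and 39.1 CPM and then 187 and 185 CPM. Dazl made up 60.4% and 62.0% of the sum in 2i/LIF at 0 h and 10.2% and 10.4% at 40 h. Without Dazl, the sum went from 34.8 and 34.0 to 120.4 and 127.5 CPM from 2i/LIF, and from 28.8 and 28.5 to 163.5 and 161.3 CPM from serum/LIF+2i. The sum without Dazl was thus somewhat higher in 2i/LIF at 0 h and higher from serum/LIF+2i at 40 h, with no overlap at either time.

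The members' group means were compared with each other as a description, over 8 groups that share the time course and their libraries' depth. Of 45 pairs, 11 had a Pearson r over 0.9 on log2 CPM, and r ran from -0.38 to 0.993 with a median of 0.581. The closest pair was Sycp1 with Sycp3 (0.993), both of the synaptonemal complex, followed by Ddx4 with Slc25a31 (0.985). Dazl had no r above 0.297 with another member. Over 13380 other genes, those most like Dazl were Fkbp6 (0.956), Gpr182 (0.944) and Stk38l (0.935). Fkbp6, a germ cell cochaperone of meiosis and the piRNA pathway, fell by 0.88 ± 0.14 at 40 h from 2i/LIF (edgeR adjusted p = 1.84e-08) and was 0.08 ± 0.14 from serum/LIF+2i (0.63). The genes most like Hormad1 were C230037L18Rik (0.974), Parp16 (0.973) and Gm4419 (0.971), and those most like Prss50 were Dact1 (0.9895), Gtf2h4 (0.986) and Cops3 (0.983). An r over 0.95 was found for 68 genes with Prss50, 8 with Hormad1 and 1 with Dazl, so the names beside Prss50 are a few of many.

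The wider list held 109 other germline genes, of which 106 were in the table and 74 could be tested. By edgeR 39 of these (52.7%) were higher and 10 (13.5%) lower at 40 h from 2i/LIF, where 34.1% and 34.7% of all genes were. From serum/LIF+2i 48 (64.9%) were higher and 9 (12.2%) lower, where 35.3% of all genes were called in each direction. Of the 74, 22 had a mean under the filter's 1.34 CPM at 0 h in both media and 7 at 40 h in both, so the filter let in more genes through late groups than through early ones, and the counts of rises are given as a description only. In serum/LIF+2i the tudor proteins of the piRNA pathway Tdrd1 (from 0.294 to 6.53 CPM) and Tdrkh (0.808 to 8.08 CPM) rose, as did Piwil4 (0.0734 to 4.12 CPM), a PIWI protein. Sycp2, the partner of Sycp3 in the lateral elements, rose from 0.294 to 7.65 CPM, and Topaz1 from 0 to 3.16 CPM. These 5 genes were called higher from 2i/LIF too, where Sycp2 reached 3.74 CPM, Tdrkh 6.78 CPM and Topaz1 2.68 CPM, and where Tdrd5, also of the piRNA pathway, rose from 0.876 to 8.97 CPM. The exceptions included Mcmdc2, which acts in meiotic recombination and fell from 3.49 to 0.919 CPM from 2i/LIF and from 4.48 to 0.318 CPM from serum/LIF+2i. Before exit, 6 of the 74 (8.11%) were higher and 16 (21.6%) lower in serum/LIF+2i than in 2i/LIF, where 14.6% and 18.4% of all genes were, so the share lower was near that of all genes. Among them were Tex13b (1.25 against 9.03 CPM) and Usp29 (0.441 against 2.25 CPM), both lower, and Brdt (3.23 against 0.963 CPM), Adad2 (2.79 against 1.17 CPM) and Ldhc (3.97 against 1.59 CPM), all higher.

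Genes of DNA methylation and its removal moved in both directions during the same hours. Of 11 tested genes that act in writing or removing the mark, 6 (54.5%) were called higher and 4 (36.4%) lower at 40 h in both media. Those higher were Dnmt3a, Dnmt3b, Dnmt3l, Tet3, Tdg and Gadd45a, and those lower were Dnmt1, Uhrf1, Tet2 and Gadd45b. Of all genes, 34.1% from 2i/LIF and 35.3% from serum/LIF+2i were higher, and 34.7% and 35.3% lower. The share lower was thus near that of all genes. In the last step, from 24 to 40 h, 4 of the 11 (36.4%) were higher and 6 (54.5%) lower from 2i/LIF, against 22.2% and 24.5% of all genes. From serum/LIF+2i it was 3 (27.3%) and 7 (63.6%), against 25.9% and 24.6%. The de novo methyltransferase Dnmt3a went from 72.7 to 1281 CPM from 2i/LIF and from 54.7 to 1045 CPM from serum/LIF+2i, and Dnmt3b from 129 to 2221 CPM and from 161 to 1730 CPM. Dnmt3l, their cofactor without catalytic activity, was 4.50 ± 0.20 higher (log2, SE) in serum/LIF+2i than in 2i/LIF at 0 h, at 169 against 7.50 CPM (edgeR adjusted p = 1.26e-07). Dnmt1 and Uhrf1, which maintain methylation at replication, fell, Uhrf1 from 895 to 546 CPM from 2i/LIF and from 802 to 446 CPM from serum/LIF+2i. So RNA of 9 germline genes and of both de novo methyltransferases was higher at 40 h than at 0 h from serum/LIF+2i. Any part of methylation in these changes was not tested.

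Among 24 genes of the complexes that hold germline genes silent, 7 (29.2%) were called higher and 14 (58.3%) lower at 40 h from each medium, with medians of -0.16 from 2i/LIF and -0.27 from serum/LIF+2i. Of all genes, 34.1% and 35.3% were higher and 34.7% and 35.3% lower, in the same order of media. Dnmt1 and Uhrf1 are among the 24 as well as among the methylation genes above, so the counts share them. Wdr5, a subunit shared by several chromatin complexes including PRC1.6, fell by 0.96 ± 0.04 from 2i/LIF and by 1.37 ± 0.04 from serum/LIF+2i (SE; edgeR adjusted p = 1.1e-45 and 2.55e-62). Hdac2, a histone deacetylase, fell by 0.78 ± 0.04 from serum/LIF+2i, and Ehmt1, a histone H3K9 methyltransferase, rose by 1.09 ± 0.06 from 2i/LIF. E2f6 itself rose by 0.74 from serum/LIF+2i (edgeR adjusted p = 6.83e-13). Each moved the same way from the other medium, Hdac2 from 271 to 193 CPM, Ehmt1 from 84.7 to 153 CPM and E2f6 from 37.7 to 45.2 CPM. Mga and Max ended lower than at 0 h. Mga went from 584 to 519 CPM from 2i/LIF and from 585 to 546 CPM from serum/LIF+2i. Max went from 95.5 to 85.2 CPM and from 93.1 to 85.1 CPM, in the same order of media. Before exit 5 of the 24 (20.8%) were higher and 5 lower in serum/LIF+2i, near the 14.6% and 18.4% of all genes, with small differences such as Kdm1a (0.35 ± 0.04) and Cbx3 (-0.68 ± 0.10).

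Markers of other cell types that transcribe some germline genes moved as well. At 40 h, 34.1% of all genes from 2i/LIF and 35.3% from serum/LIF+2i were called higher, and 34.7% and 35.3% lower. Primordial germ cell markers fell: of 8, 7 were called lower at 40 h from each medium and 0 and 1 (Dnd1) higher, with medians of -3.13 and -2.70. Their summed level went from 855 to 878 CPM down to 122 to 135 CPM from 2i/LIF, and from 773 to 777 CPM down to 105 to 114 CPM from serum/LIF+2i. Of the defining markers, Prdm14 ended at 0.585 and 0.371 CPM, Tfap2c at 1.75 and 3.77 CPM and Nanos3 at 0.199 and 0.463 CPM, in the same order of media. Prdm1 ended at 5.09 and 1.79 CPM and Dppa3 at 10.6 and 6.86 CPM. Several markers were already high in the naive cells at 0 h, such as Kit (447 and 399 CPM) and Prdm14 (93.2 and 91.3 CPM). Their fall therefore cannot show whether germ cells were present.

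Markers of 2-cell-like cells, a rare state in ES cultures that resembles the embryo after its first cleavage, rose. Of the 8 in the table, 6 were called higher at 40 h from 2i/LIF (34.1% of all genes) and 8 from serum/LIF+2i (35.3%). In each medium 0 were lower (34.7% and 35.3% of all), and 5 of the 8 had means under the filter's level at 0 h in both media. Their summed level went from 5.92 to 8.44 CPM up to 19.8 to 29.2 CPM from 2i/LIF, and from 0.881 to 1.47 CPM up to 45.7 to 47.4 CPM from serum/LIF+2i, where 3 of the 8 were at 0 before exit. Zscan4d, from a cluster of near-identical copies whose reads may be shared, reached 10.9 and 18.9 CPM. From 0 to 40 h these markers moved in the same direction as most of the germline genes and rose further in the same medium. At 24 h their median log2 difference, serum/LIF+2i minus 2i/LIF, was -0.93, where that of the 10 members was 0.58. From 24 to 40 h from 2i/LIF their median change was -0.24, where that of the members was 0.42. The part of these markers in the result was not tested. Markers of other lineages were measured too, 7 for each, and their counts of calls stand against the same shares of all genes. Trophectoderm markers, of which 5 could be tested, summed to 29.5 to 32.9 CPM in 2i/LIF and 43.8 to 45.3 CPM in serum/LIF+2i at 0 h, where the 10 germline genes summed to 39.1 and 43.3. Tfap2a made up 25.6 CPM of the latter. By 40 h they summed to 5.71 to 6.14 and 6.98 to 7.26 CPM, with 4 called lower and 0 higher in each medium, and Elf5 was then at 0. Fibroblast markers, of which 4 could be tested, went from 3.96 to 4.10 CPM up to 15.2 to 22.3 CPM from 2i/LIF, with 2 called higher, and from 2.50 to 2.65 CPM up to 10.6 to 11.7 CPM from serum/LIF+2i, with 3 higher. Dcn rose from 0 to 11.2 and 4.74 CPM in the same order of media, and Postn was at 0 in all groups. Primitive endoderm markers, of which 3 could be tested, went from 6.23 to 6.38 CPM up to 11.02 to 14.0 CPM from 2i/LIF, with 1 called higher and 1 lower, and from 6.47 to 6.90 CPM up to 15.9 to 16.7 CPM from serum/LIF+2i, with 1 higher and 0 lower. The part of these markers in the germline results was not tested.

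**Figure D4:**
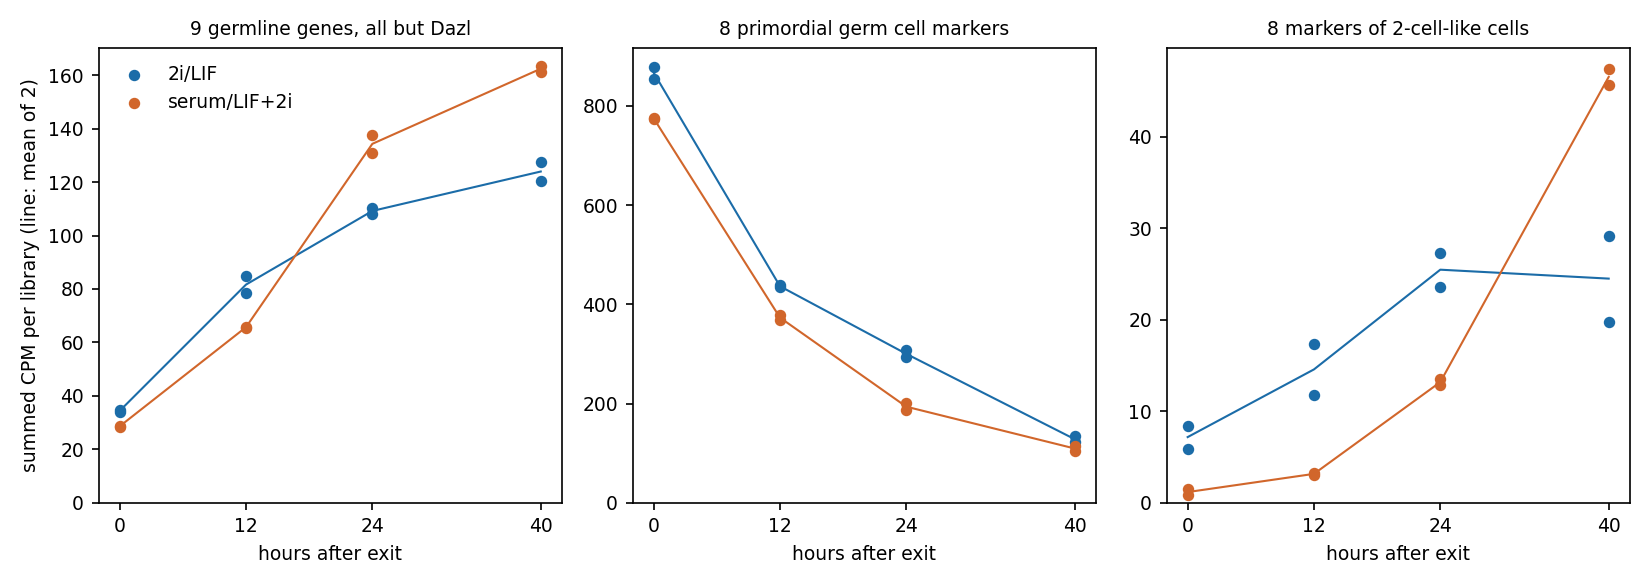
Summed CPM per library (vertical axis, own scale per panel) against hours after exit for the 9 germline genes other than Dazl, 8 primordial germ cell markers and 8 markers of 2-cell-like cells, blue for 2i/LIF and orange for serum/LIF+2i, lines at the mean of 2 libraries. The germline sum rises to 120.4 and 127.5 CPM from 2i/LIF and 163.5 and 161.3 CPM from serum/LIF+2i while the primordial germ cell sum falls to 105 to 135 CPM.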

How the data were processed

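Reads of 16 libraries, made with TRIzol and a stranded poly(A) kit per the labels' protocols, were processed by the authors with fastp, STAR and featureCounts against mm10, per the submitters' processing notes. Versions, annotation and strand setting are not given in the sources used here. The authors deposited whole-number counts per gene, with another column that gives each gene's length in bases, per the file headers. Groups and replicate numbers follow the sample titles. The labels' protocol names 24 and 40 h for cells from serum, but libraries titled 12 h exist for both media. Of 27179 genes, 14288 passed the filterByExpr function of edgeR with the 8 groups as design (at least 10 counts in enough libraries and 15 in total). All 16 libraries were fitted in a single model with TMM scaling and edgeR 4.0.16's robust quasi-likelihood F test (two-sided, R 4.3.3, limma 3.58.1, 8 residual degrees of freedom). The SE of a log2 change is its absolute value divided by the square root of the F statistic of that test. It uses the spread estimated over all 16 libraries and is not the spread of the 2 libraries of a group. Adjusted p-values are Benjamini-Hochberg values over all tested genes in each of 17 comparisons, and a gene was called under 0.05. Ratios beside small counts carry exact 95% binomial intervals. DESeq2 1.42.0 and the other alternatives stand in the closing section. The fit was also run on simulated counts with changes planted in a single group. That setting is unlike these data, in which many genes changed in several groups, so no result here rests on it. The members, the gene lists and the tests were chosen with earlier results of these data known. All members are named. From the other germline genes up to 4 rises and 2 falls per comparison may be named, if called and averaging 1 CPM or more over all libraries, and from the repressors and methylation genes the 3 with the smallest adjusted p. Other names (E2f6, Mga, Max, Dnmt1, Dnmt3l, Fkbp6 and the marker genes) were given after their values were seen. Correlations used log2 CPM with a prior count of 2. Promoter windows and gene positions come from RefSeq tables for GRCm38.p6, the assembly that mm10 names.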

Additional observations from a re-analysis of the deposited data

Results flagged for a closer look

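Exit changed some germline genes by different amounts from the 2 media, as tested by the interaction (log2, exit effect from serum/LIF+2i minus that from 2i/LIF, edgeR adjusted p under 0.05). The base medium during exit differed too, and its part cannot be told apart from that of the maintenance medium. Dazl differed by 1.33, 1.82 and 2.83 at 12, 24 and 40 h. Taf7l differed by 3.33 at 24 h and 3.66 at 40 h, Sycp3 by 1.52 and 1.24, Ddx4 by 0.89 and 0.96, and Sycp1 by 0.88 and 0.94. For Prss50 the fitted values were -5.5, -5.04 and -4.68 at 12, 24 and 40 h, with 0 to 3 counts per library at 0 h, so their size depends on the prior count.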

How the results depend on the processing

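Across 3570 alternative values of 170 member effects, of which 103 were called, 0 called effects changed sign and 23 effects that were not called did. DESeq2 size factors changed 0 calls. A minimum absolute log2 change of 1 lowered the number of members called from 4 to 2 (exit, 12 h, 2i/LIF), from 2 to 1 and 6 to 3 (the later steps from 2i/LIF), from 8 to 5 and 8 to 3 (those from serum/LIF+2i), and from 2 to 0, 7 to 1 and 7 to 2 (media at 12, 24 and 40 h). For exit at 40 h it went from 9 to 7 in each medium. Exit at 24 h from 2i/LIF and at 12 h from serum/LIF+2i each went from 7 to 6. Between media at 0 h it went from 4 to 3, and for the interaction at 24 and 40 h from 6 to 4. DESeq2's Wald test lowered it from 8 to 5 in the last step from serum/LIF+2i, from 4 to 1 and 7 to 3 between media at 0 and 24 h, and to 1, 3 and 3 for the interaction at 12, 24 and 40 h. With that test it also went from 7 to 5 for exit at 24 h from 2i/LIF and between media at 40 h. Smaller changes were 7 to 6 (exit, 12 h, serum/LIF+2i), 6 to 5 (last step, 2i/LIF) and 8 to 7 (step from 12 to 24 h, serum/LIF+2i). Without a filter, 2 in place of 4 were called between media at 0 h, and 5 in place of 7 for exit at 24 h from 2i/LIF. There were then 6 in place of 7 for exit at 12 h from serum/LIF+2i and between media at 24 h. The later steps from serum/LIF+2i had 7 in place of 8, and the interaction at 40 h had 5 in place of 6. Scaling by library size only gave 6 in place of 7 (exit, 24 h, 2i/LIF) and 9 in place of 8 (step from 12 to 24 h, serum/LIF+2i). With 1 library left out, the number ranged from 4 to 7 for exit at 24 h from 2i/LIF and between media at 24 h (4 without replicate 2 of 2i/LIF at 24 h). It ranged from 1 to 4 between media at 0 h (1 without replicate 1 of serum/LIF+2i), from 1 to 2 for the interaction at 12 h, and from 3 to 6 at 24 and 40 h (3 without replicate 1 of either medium at 0 h). The cause was not tested. With a floor of 10 counts per library, 4, 2, 2 and 1 members were at or under it in 2i/LIF at 0, 12, 24 and 40 h, and 3, 2, 0 and 0 in serum/LIF+2i.

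The titles share replicate numbers, but libraries of 1 number did not deviate together (r from -0.023 to 0.033 over 28 pairs of groups), so the numbers were not taken as pairs. With the number as a replicate block, 169 of 170 calls of member effects did not change, and Tex101 between media at 24 h was also called, at 1.39. Depth limits Tex101, Slc25a31, Taf7l and Prss50, which had at most 3 counts per library in at least 1 group at 0 h.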
